A study of Ovis aries with 16 samples.

Results

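The endoplasmic reticulum chaperones examined here are the genes HSPA5, HSP90B1, CANX, CALR, PDIA3, PDIA4, PDIA6, HYOU1 and DNAJB9, with XBP1, a transcription factor that controls many of them. All probe sets annotated to exactly 1 of these 10 symbols were taken, without regard to their values. The genes themselves were chosen with earlier results of these data known. Of the 10 genes, 8 were found, with 18 probe sets among the 24016 analysed and 8 of the 9155 genes with a symbol. PDIA6 and XBP1 had no probe set under their symbols and are not analysed here. HYOU1 had 5 probe sets, HSPA5, CANX and PDIA4 had 3 each, and HSP90B1, CALR, PDIA3 and DNAJB9 had 1 each.

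Proteins that are secreted or placed in membranes fold inside the endoplasmic reticulum, where Hsp70-type and Hsp90-type chaperones hold unfolded chains, lectin chaperones hold chains that carry sugars, and disulphide isomerases join cysteines. When unfolded chains build up, the sensors ERN1, EIF2AK3 and ATF6 start the unfolded protein response, which raises transcription of most of the chaperones. In lung, surfactant-making type 2 cells, mucous cells, plasma cells and matrix-making cells carry large loads of such proteins.

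RNA of peripheral lung was measured in 16 lambs at 3 days of age, on arrays that carry bovine probes. In the 8 shunt lambs, fetal surgery 9 ± 6 days before term had joined the aorta to the pulmonary artery through a Gore-tex tube with a width of 8.0 mm and a length of 2 mm. More blood then flows through the lung, as in some congenital heart defects. The 8 control lambs came from sham operations, and lambs of both groups were delivered spontaneously. The labels used here give no genotype, breed or sex and no detail of single lambs. Arrays were counted as separate lambs, and the p-values cover only the spread between arrays, which would be technical wherever an animal was used more than once. The lung is whole tissue, so in every comparison fewer cells of a type and less RNA per cell cannot be told apart. The type 2 cell genes SFTPC, SFTPB and SFTPA1 had mean log2 signals of 13.36, 12.57 and 12.74, and the type 1 cell gene AGER of 11.41 and all were bright.

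Values are log2 signals, with arrays normalized to each other, and a difference is the shunt mean minus the control mean. The number of arrays limits the precision. Control replicate 2 stood apart from the other arrays, with a mean correlation of 0.983 with them against 0.990 to 0.993 for the rest, so results are given with and without it. Array medians differed between the groups by -0.02 (7.16 ± 0.02 in control and 7.14 ± 0.01 in shunt, SD, n = 8 each, exact two-sided permutation p = 0.000777), and so did the poly-A spike-in controls, which averaged 4.31 ± 0.07 and 4.25 ± 0.02 (exact permutation p = 0.00389). Both poly-A means are near the bottom of the signal range, where a CAMP probe set with a mean of 4.36 stood at percentile 5.3. What they say of labelling is therefore limited. The excess of 3′ over 5′ signal in 6 control genes, which reflects how intact the RNA was, measured 1.00 ± 0.23 in control and 1.02 ± 0.13 in shunt lambs (exact permutation p = 0.820).

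In the comparison of shunt with control lung, 7 of the 8 chaperone genes had a higher mean in shunt, by 0.05 (PDIA3) to 0.22 (HSPA5), and PDIA4 had a lower one. None of the 18 probe sets passed an adjusted p of 0.05 (limma, Benjamini-Hochberg over all probe sets), against 0.0708% of all probe sets. At an unadjusted p under 0.05, 4 of the 18 probe sets were higher, 2 of HSPA5 and 2 of CANX, against 6.42% of all probe sets, and 0 were lower, against 7.32%. With each gene represented by its probe set of highest mean signal, HSPA5 and CANX were the 2 of 8 genes higher at that level, against 6.74% of all genes. The median difference of the 8 genes was 0.13, where that of all genes was -0.01 and 44.9% of genes had a higher mean in shunt. Among bright genes more means were higher in shunt. In the brightest 10% of genes, which held 4 of the 8, the median was 0.02, 60.8% had a higher mean in shunt and 11.2% were higher at an unadjusted p under 0.05. The part of brightness in the chaperones' differences was not tested.

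HSPA5 encodes BiP, the Hsp70-type chaperone of the compartment that also keeps the stress sensors inactive. Its brightest probe set read 12.79 to 13.20 in the control lambs, with a median of 13.06, and 13.09 to 13.52 in the shunt lambs, with a median of 13.23. Every shunt lamb lay above the control mean of 13.04, but the groups overlapped, since control replicates 3, 6, 7 and 8 lay above the lowest shunt lamb. The difference was 0.22 ± 0.07 (SE, 95% interval 0.07 to 0.37), or 1.16-fold, with an unadjusted p = 0.00585 and an adjusted p = 0.227 (limma). Without control replicate 2, the lowest of all lambs, it was 0.18 ± 0.07 (adjusted p = 0.321). A second HSPA5 probe set read 10.78 to 11.33 in control (median 10.98) and 10.87 to 11.92 in shunt lambs (median 11.29), a difference of 0.35 ± 0.14 (adjusted p = 0.303). The third was dimmer, with a mean of 6.93, and differed by 0.01 ± 0.07. The brighter pair of HSPA5 probe sets varied alike from lamb to lamb after group means were removed (r = 0.71, permutation p = 0.00338, Spearman rho = 0.65, permutation p = 0.0135), though not past the threshold when adjusted over the 19 pairs of probe sets of a common gene (adjusted p = 0.0642). Without the 2 lambs farthest from the HSPA5 median, control replicate 2 and shunt replicate 5, r was 0.58.

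HYOU1 is a large Hsp70-type protein that drives nucleotide exchange on BiP. Its brightest probe set read 7.73 to 8.11 in control (median 7.93) and 7.84 to 8.46 in shunt lambs (median 8.02). Shunt replicates 2 and 5, at 8.33 and 8.46, lay above every control lamb, and the other shunt lambs lay within the control range. The difference was 0.16 ± 0.08 (95% interval -0.01 to 0.34, adjusted p = 0.389, limma). It was 0.15 ± 0.09 without control replicate 2 and 0.11 without shunt replicate 5. The other 4 HYOU1 probe sets, with means from 5.44 to 6.77, differed by -0.11, 0.00, 0.01 and 0.06. Those 4 had r with the brightest between -0.31 and 0.13 over the lambs, so the HYOU1 value rests on 1 probe set.

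DNAJB9 is a J-domain co-chaperone of BiP that is strongly dependent on the sensor ERN1 and on XBP1. It read 9.65 to 9.94 in control (median 9.74) and 9.66 to 10.40 in shunt lambs (median 9.84), and the groups overlapped through most of their range. Shunt replicate 2 held the highest value, and shunt replicate 5 was next at 10.03. The difference was 0.15 ± 0.08 (95% interval -0.03 to 0.32, adjusted p = 0.439, limma), and 0.14 ± 0.09 without control replicate 2. Without shunt replicate 2 it was 0.08, so much of the DNAJB9 difference rests on that lamb. HSP90B1, the Hsp90-type chaperone GRP94, read 11.97 to 12.22 in control (median 12.16) and 12.05 to 12.47 in shunt lambs (median 12.23). Shunt replicates 2 and 5 again read highest, at 12.40 and 12.47, replicates 6 and 7 lay just above the highest control, and the other 4 lay within the control range. Its difference was 0.12 ± 0.06 (95% interval -0.01 to 0.25, adjusted p = 0.388, limma), and 0.10 ± 0.06 without control replicate 2.

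**Figure D1:**
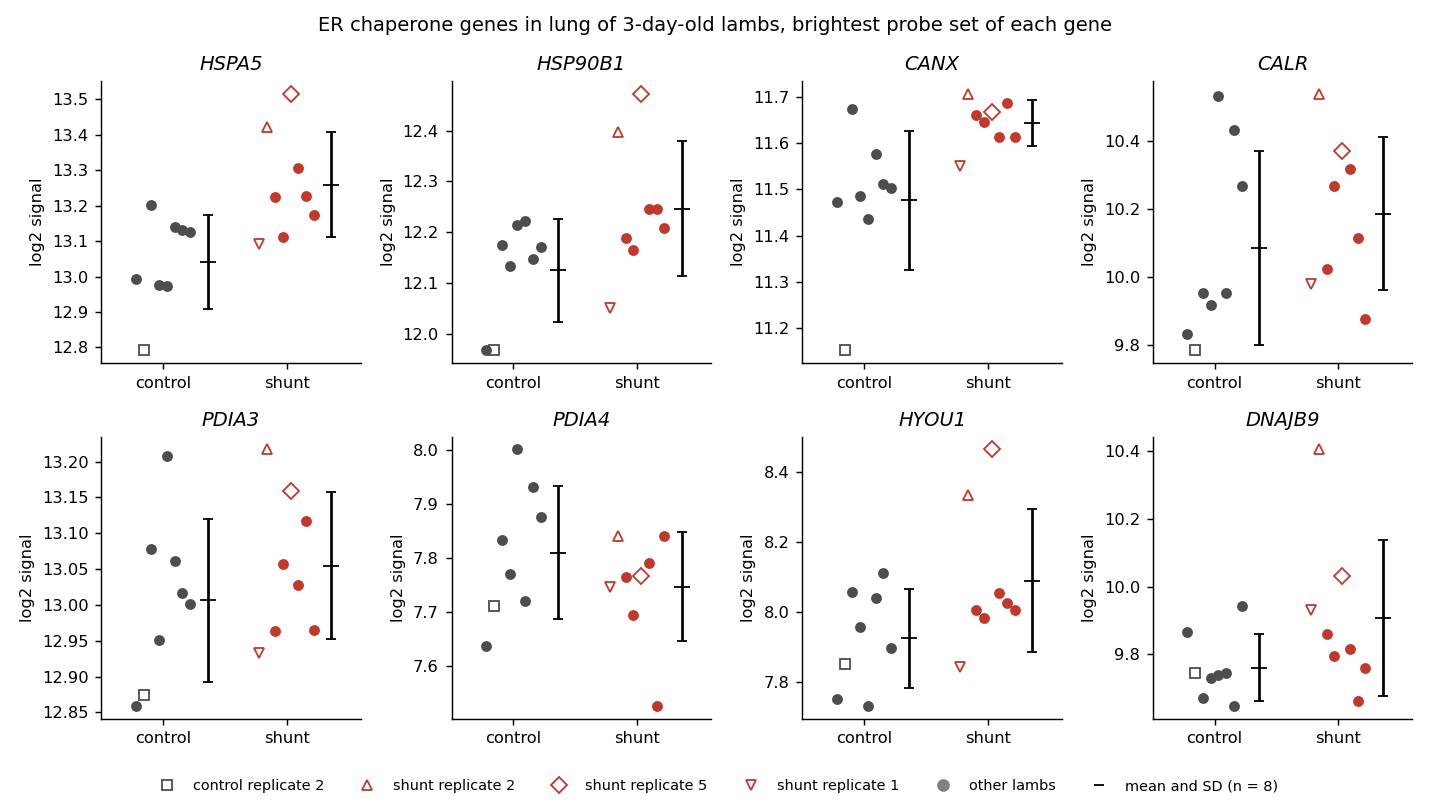
Log2 signal (y axes, each with its own range) of the brightest probe set of the 8 genes in every control and shunt lamb, with the mean and SD of each group of 8 at its right. Control and shunt lambs overlap in every panel, and shunt replicates 2 and 5 (open triangle and diamond) stand highest for HSPA5, HSP90B1 and HYOU1. Control replicate 2 (open square) is lowest for HSPA5, CANX and CALR and, nearly level with control replicate 1, for HSP90B1.

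CANX encodes calnexin, the membrane-bound lectin that holds glycoproteins until they fold. Its brightest probe set read 11.15 to 11.67 in control (median 11.49) and 11.55 to 11.71 in shunt lambs (median 11.65), and 8 of 8 shunt lambs lay above the control mean of 11.48. The shunt lambs were closely spaced, with an SD of 0.05 against 0.15 in control, which was 0.08 without control replicate 2. The groups overlapped through control replicates 3 and 6, at 11.67 and 11.58. The difference was 0.17 ± 0.06 (95% interval 0.04 to 0.29, unadjusted p = 0.0117, adjusted p = 0.260, limma), or 1.12-fold. Without control replicate 2, whose CANX was the lowest by far, it was 0.12 ± 0.04 (unadjusted p = 0.0139, adjusted p = 0.329). The dimmer CANX probe sets, with means of 6.46 and 5.65, differed by 0.26 ± 0.10 (adjusted p = 0.306) and 0.12 ± 0.07, so all 3 had the same sign. Over the lambs they did not vary together, with r from -0.24 to 0.30.

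CALR encodes calreticulin, the soluble counterpart of calnexin and a store of calcium. It read 9.79 to 10.53 in control (median 9.95) and 9.88 to 10.54 in shunt lambs (median 10.19), nearly the same range. The control lambs were uneven, since replicates 5, 7 and 8 read 10.27 to 10.53 and the other 5 read 9.79 to 9.95. The difference was 0.10 ± 0.12 (95% interval -0.14 to 0.35, adjusted p = 0.708, limma) and 0.06 ± 0.12 without control replicate 2. With single arrays left out it ran from 0.05 (without shunt replicate 2) to 0.17 (without control replicate 5). The interval is wide enough to hold the HSPA5 difference.

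PDIA3, or ERp57, is the disulphide isomerase that works with calnexin and calreticulin, and PDIA4, or ERp72, is an isomerase found with BiP. PDIA3 read 12.86 to 13.21 in control (median 13.01) and 12.93 to 13.22 in shunt lambs (median 13.04), a difference of 0.05 ± 0.06 (95% interval -0.07 to 0.17, adjusted p = 0.726, limma). PDIA4 read 7.64 to 8.00 in control (median 7.80) and 7.53 to 7.84 in shunt lambs (median 7.77), a difference of -0.06 ± 0.06 (95% interval -0.19 to 0.06, adjusted p = 0.647). All 3 PDIA4 probe sets were below 0, at -0.06, -0.09 and -0.02, and none differed beyond the spread between lambs. Without control replicate 2, PDIA3 was at 0.03 and PDIA4 at -0.08. Without shunt replicate 7, the lowest lamb for PDIA4, PDIA4 was at -0.03.

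**Figure D2:**
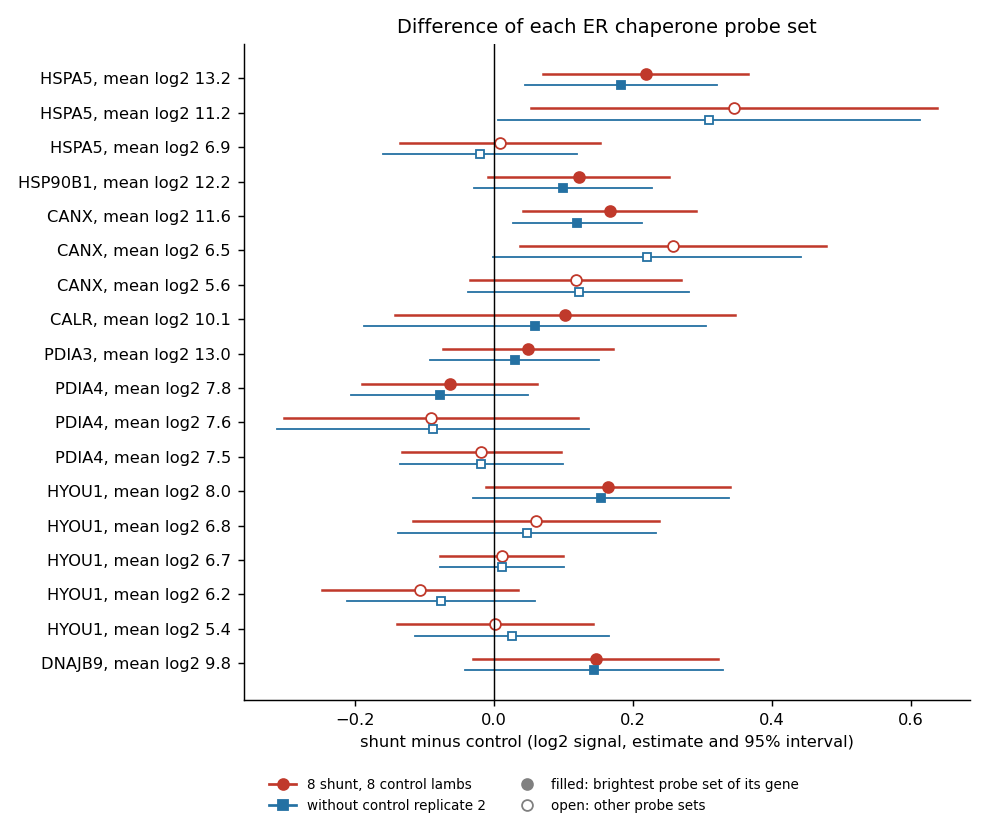
Shunt minus control difference in log2 signal (x axis, with its 95% interval) of the 18 probe sets, labelled by gene and mean log2 signal, with all lambs (red circles) and without control replicate 2 (blue squares). The intervals of 2 HSPA5 and 2 CANX probe sets lie above 0 with all lambs, those of PDIA4 all cross 0, and leaving out control replicate 2 moves the brightest CANX probe set from 0.17 to 0.12.

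Leaving out control replicate 2 left 7 of 8 chaperone genes with a higher mean in shunt, against 42.4% of all genes. HSPA5 and CANX were again the 2 genes higher at an unadjusted p under 0.05, against 5.12% of all genes, and 3 of the 18 probe sets were, against 4.91%. Of the 18, 0 probe sets passed after adjustment, against 0.0583%, and the median difference was 0.11 where that of all genes was -0.02. With all lambs, and also without control replicate 2, 0 of the 8 genes had groups that did not overlap, against 0.153% and 0.208% of all genes, and with all lambs 0 of the 18 probe sets did, against 0.142%. The count at an unadjusted p under 0.05 moved with the scaling. With each array centred on its median it was 4 of 8 genes, HSP90B1 (0.14 ± 0.06) and HYOU1 (0.19 ± 0.09) being added, against 9.33% of all genes, and 53.6% of all genes then had a higher mean in shunt. Of all genes at that level, 46.0% were higher as deposited and 65.4% after centring. After quantile normalization again it was 1, HSPA5, against 6.25%, and after cyclic loess 3, with HYOU1 added, against 7.15%. It was also 4 without shunt replicate 1, the lowest shunt lamb for HSPA5, HSP90B1, CANX, HYOU1 and PDIA3, against 7.19%. HSPA5 was then at 0.24 ± 0.07 (adjusted p = 0.158, limma).

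Several of the chaperones varied together from lamb to lamb, with each gene read by its brightest probe set. With group means removed, all 28 pairs of the 8 genes had r above 0 over the 16 lambs, with a median of 0.43 and a range of 0.05 to 0.84. By comparison, HSPA5 had r above 0 with 5078 of 9154 genes, at a median of 0.05. Shares over pairs of all genes were not computed. The 19 pairs of probe sets of a common gene had a median r of 0.13, lower than that of the member pairs, and 0 passed after adjustment. HYOU1 enters by its brightest probe set, which its other probe sets did not follow. Of the 28 pairs, 8 passed an adjusted p of 0.05 by both Pearson's r and Spearman's rho (permutation within groups, Benjamini-Hochberg over the 28). Values of a lamb share an array, so a difference in labelling between arrays enters both genes of a pair. HSPA5 and HSP90B1 had r = 0.84 (permutation p = 0.00019, adjusted p = 0.00175, rho = 0.82, permutation p = 0.00027), which was 0.82 without control replicate 2 and 0.71 without the 2 lambs farthest from the HSPA5 median. HSPA5 and HYOU1 had r = 0.83 (permutation p = 0.00025, adjusted p = 0.00175, rho = 0.84, permutation p = 0.00023), which was 0.90 without control replicate 2 and 0.84 without the 2 farthest. HSP90B1 and HYOU1 were at r = 0.79 (permutation p = 0.00117, adjusted p = 0.00546, rho = 0.74), and at 0.62 without the 2 lambs farthest from the HSP90B1 median, shunt replicates 1 and 5. Within the groups this pair was at 0.98 in shunt lambs (exact permutation p = 2.48e-05, the smallest that 8 lambs allow) and 0.43 in control lambs (exact permutation p = 0.294), where control replicate 5 read low for HYOU1 and high for HSP90B1. The isomerase PDIA3 was close to HSP90B1 (r = 0.84, permutation p = 8e-05, adjusted p = 0.00175, rho = 0.85, permutation p = 7e-05), at 0.85 without shunt replicates 1 and 5. It was also close to CALR (r = 0.77, permutation p = 0.00111, adjusted p = 0.00546, rho = 0.81, permutation p = 0.00044), at 0.59 without control replicate 5 and shunt replicate 2, the lambs farthest from the CALR median. HSPA5 with CANX also passed (r = 0.73, permutation p = 0.00017, adjusted p = 0.00175, rho = 0.82), at 0.64 without control replicate 2, as did HSP90B1 with CANX (r = 0.56, permutation adjusted p = 0.0228, rho = 0.64) and with CALR (r = 0.64, permutation adjusted p = 0.0289, rho = 0.71). DNAJB9 and PDIA4 passed with no other member, with r from 0.05 to 0.39 and from 0.11 to 0.62. In control lambs alone DNAJB9 had r below 0 with every other member, from -0.56 to -0.09. DNAJB9 and HYOU1 had r = 0.36 (permutation p = 0.246, rho = 0.19, permutation p = 0.512), which turned to -0.57 without shunt replicates 2 and 5, so its sign rests on those lambs.

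**Figure D3:**
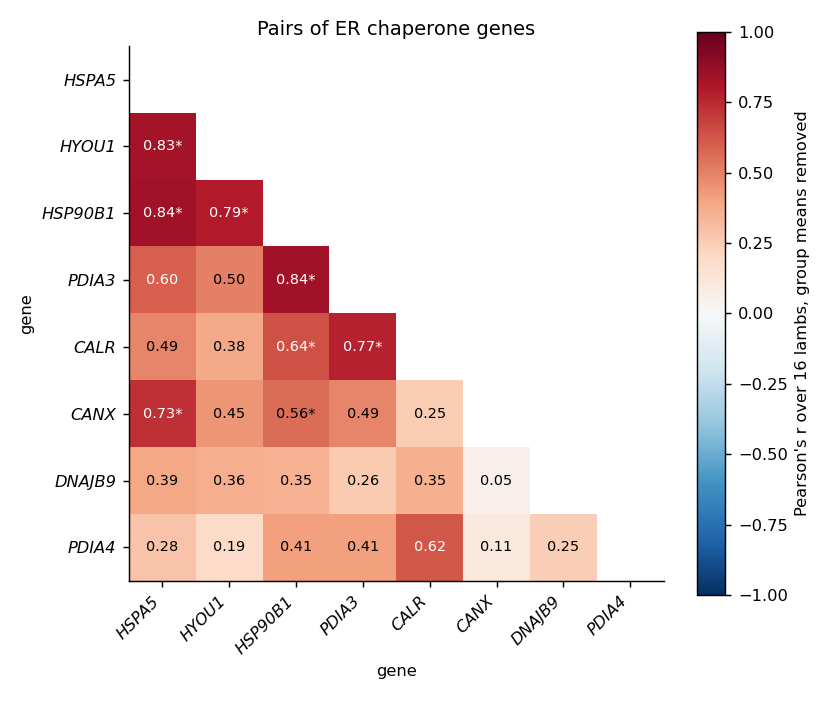
Pearson's r (colour scale and printed values) of each pair of the 8 genes over the 16 lambs after group means were removed, with a star where both r and Spearman's rho passed an adjusted permutation p of 0.05. The starred pairs lie among HSPA5, HYOU1, HSP90B1, PDIA3, CALR and CANX, and DNAJB9 and PDIA4 carry none.

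Within the groups of 8 the pairs were uneven. The median r was 0.36 in control lambs, with 21 of 28 pairs above 0, and 0.65 in shunt lambs, with 26 above 0. In shunt lambs HSPA5 had r = 0.96 with both HYOU1 (exact permutation p = 4.96e-05, adjusted p = 0.000694) and HSP90B1 (exact permutation p = 0.000124, adjusted p = 0.00116). In control lambs the same pairs were at 0.65 (exact permutation p = 0.0814) and 0.68 (exact permutation p = 0.0780). HSPA5 and CANX were at 0.93 in control (exact permutation p = 9.92e-05) and 0.59 in shunt lambs (exact permutation p = 0.122). Whether a pair differed between the groups was not tested. The order of the lambs shows the same spread. Shunt replicate 2 was among the 3 highest of the 16 lambs for 7 of the 8 genes and the highest for CANX, CALR, PDIA3 and DNAJB9. Shunt replicate 5 was among the 3 highest for 5 and the highest for HSPA5, HSP90B1 and HYOU1. At the low end, control replicate 1 was among the 3 lowest for 6 genes and control replicate 2 for 5.

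Outside the 8 genes, the gene whose values over the lambs were most like those of HSPA5 was MANF, a secreted factor of the endoplasmic reticulum that is itself induced by unfolded protein (r = 0.95, rho = 0.88, over 16 lambs with group means removed, out of 9154 genes compared). It was at 0.97 within control and 0.93 within shunt lambs, and 0.93 without control replicate 2. Next came PPID, a cytosolic prolyl isomerase that binds Hsp90 (r = 0.89), CRELD2, an endoplasmic reticulum protein that is also induced by unfolded protein (0.86), the exonuclease gene REXO2 (0.84) and TRIM47 (0.84). Without control replicate 2 these 4 ran from 0.78 to 0.86. With shunt replicate 5 left out as well, the other lamb farthest from the HSPA5 median, they ran from 0.74 to 0.88, and MANF was at 0.91. Among the other 7 chaperones, HSP90B1 was 4th of the 9154 genes by r with HSPA5, HYOU1 was 7th and CANX was 48th, while PDIA3 was at place 276, CALR at 766, DNAJB9 at 1478 and PDIA4 at 2375. No p is given for these places, since the genes were taken for their likeness.

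**Figure D4:**
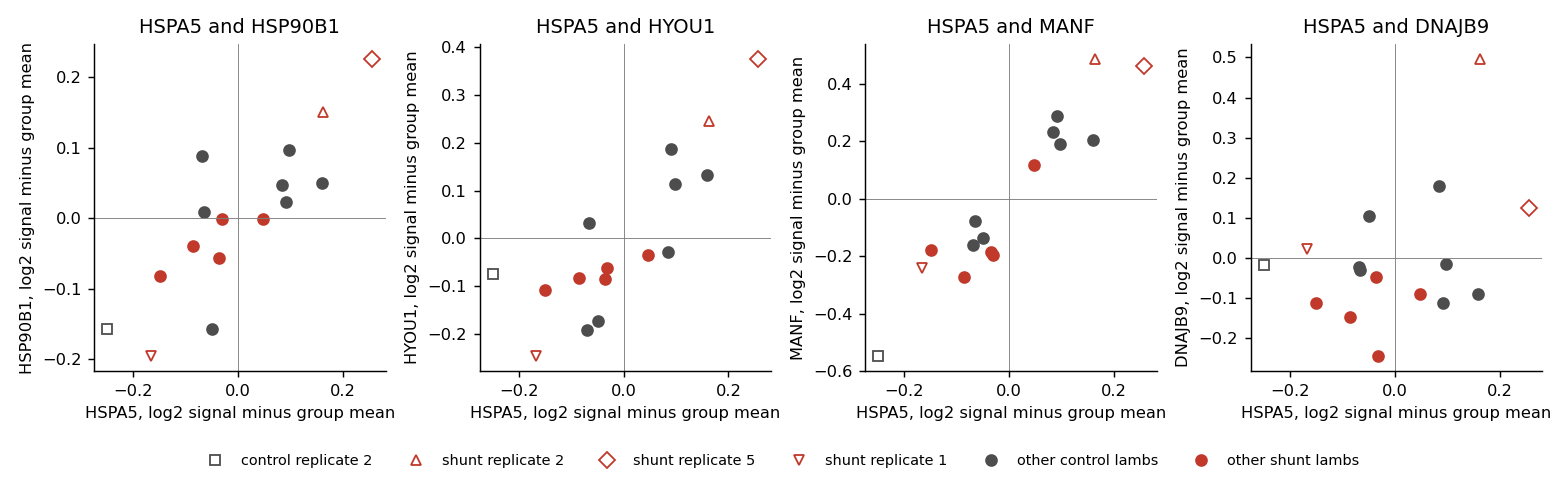
Log2 signal minus the group mean of HSP90B1, HYOU1, MANF and DNAJB9 (y axes) against that of HSPA5 (x axes), 1 point per lamb. Points of HSP90B1, HYOU1 and MANF follow HSPA5, with shunt replicates 2 and 5 at the upper right and control replicate 2 at the lower left for MANF, while for DNAJB9 (r = 0.39) shunt replicate 2 stands far above the rest.

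Other genes of folding and secretion were taken from 9 lists, in which 124 genes were measured with 1 probe set each. Of these, 81 had a higher mean in shunt, against 44.9% of all genes, and 43 a lower one, with a median difference of 0.03. None passed in either direction (limma, adjusted over all probe sets). At an unadjusted p under 0.05, 8 were higher and 5 lower, against 6.74% and 7.92% of all genes. Without control replicate 2 the median was 0.01, 72 genes had a higher mean, and the counts turned to 5 higher and 8 lower, against 5.12% and 7.96% of all genes.

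Co-chaperones of BiP and related factors were mixed, with 7 of 11 higher and a median of 0.05. MANF averaged 11.08 ± 0.28 in the control lambs and 11.41 ± 0.32 in the shunt lambs (SD, 8 lambs each), a difference of 0.33 ± 0.14 (SE, adjusted p = 0.310, limma) that was 0.25 without control replicate 2. CNPY3, a co-chaperone of GRP94 for Toll-like receptors, was at -0.19 ± 0.07 (adjusted p = 0.251), with another probe set at 0.02, and SIL1, an exchange factor for BiP, was at -0.15 ± 0.07. Disulphide isomerases and oxidases had 8 of 12 higher (4 without control replicate 2) and a median of 0.02, with the membrane-bound isomerase TMX1 at 0.22 ± 0.08 (adjusted p = 0.262), the sulfhydryl oxidase QSOX1 at -0.18 ± 0.07 (adjusted p = 0.291) and TXNDC12 at 0.09. Other genes of the calnexin and calreticulin cycle had 2 of 5 higher and a median of -0.03. Among them, PRKCSH was at -0.09, MLEC at -0.10 and GANAB at 0.04 (another probe set at -0.02). Prolyl isomerases and collagen chaperones had 11 of 13 higher and a median of 0.06, with the collagen hydroxylase P3H1 at 0.17 ± 0.08, FKBP14 at 0.21 ± 0.11 and FKBP9 at 0.13. With all lambs 0 of the 13 were at an unadjusted p under 0.05, and without control replicate 2 it was 1, P3H1, at 0.20 (unadjusted p = 0.0187, limma). Shares of all genes at that level are those given above for the 124.

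The list of sensors and effectors of the unfolded protein response held 21 genes, of which 15 were measured. Of the sensors named above, EIF2AK3 was among these 15, at 0.05, while ERN1 and ATF6 were not. In this list 3 of 15 genes were higher, against 44.9% of all genes. The list median was -0.06, the other sign from the chaperones, where that of all genes was -0.01. Without control replicate 2 the list had 4 of 15 higher, against 42.4% of all genes, and a median of -0.05. SESN2, a stress-induced regulator of growth signalling, was at -0.19 ± 0.06 (unadjusted p = 0.00418, adjusted p = 0.218, limma), with other probe sets at -0.15 and 0.04. TRIB3, a target of the EIF2AK3 arm, was at -0.12 ± 0.06, and PPP1R15A, the phosphatase subunit that lets translation resume, at -0.13 ± 0.08. SESN2 was the 1 gene of the 15 lower at an unadjusted p under 0.05, near the 7.92% of all genes, and 0 were higher. PPP1R15A was lower at that level too without control replicate 2, at -0.17 (unadjusted p = 0.0288, limma). That made 2 of the 15, against 7.96% of all genes. The genes of this list had a median r of -0.09 with HSPA5 over the lambs, with 4 of 15 above 0, where all genes had a median of 0.05.

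Genes that carry chains into the endoplasmic reticulum and out of it had mostly higher means. Of all genes 44.9% had a higher mean in shunt, and of the brightest 10% of genes 60.8%. The part of brightness in these lists was not tested. The translocon and signal peptidase list had 17 of 21 higher and a median of 0.05, with the signal recognition particle gene SRP14 at 0.19 ± 0.07 (adjusted p = 0.257, limma), the signal peptidase subunit SPCS3 at 0.23 ± 0.10 (other probe sets at 0.25 and -0.07) and the channel subunit SEC61G at 0.17 ± 0.07. Transport to the Golgi and retrieval had 15 of 18 higher and a median of 0.06, with the coat genes SEC23A at 0.22 ± 0.09 (adjusted p = 0.306), SEC31A at 0.11 ± 0.05 and SEC24B at 0.15 ± 0.07. Degradation of misfolded chains had 12 of 19 higher. In that list HERPUD2 was at 0.18 ± 0.08 (another probe set at 0.03), OS9 at -0.12 ± 0.05 and RNF5 at -0.10. The oligosaccharyltransferase list, of the enzyme that attaches sugars, had 6 of 10, with KRTCAP2 at -0.08, DDOST at -0.09 and OSTC at 0.07. Without control replicate 2 these became 8 of 19 and 5 of 10, while transport stayed at 15 of 18 and the translocon list was at 16 of 21.

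**Figure D5:**
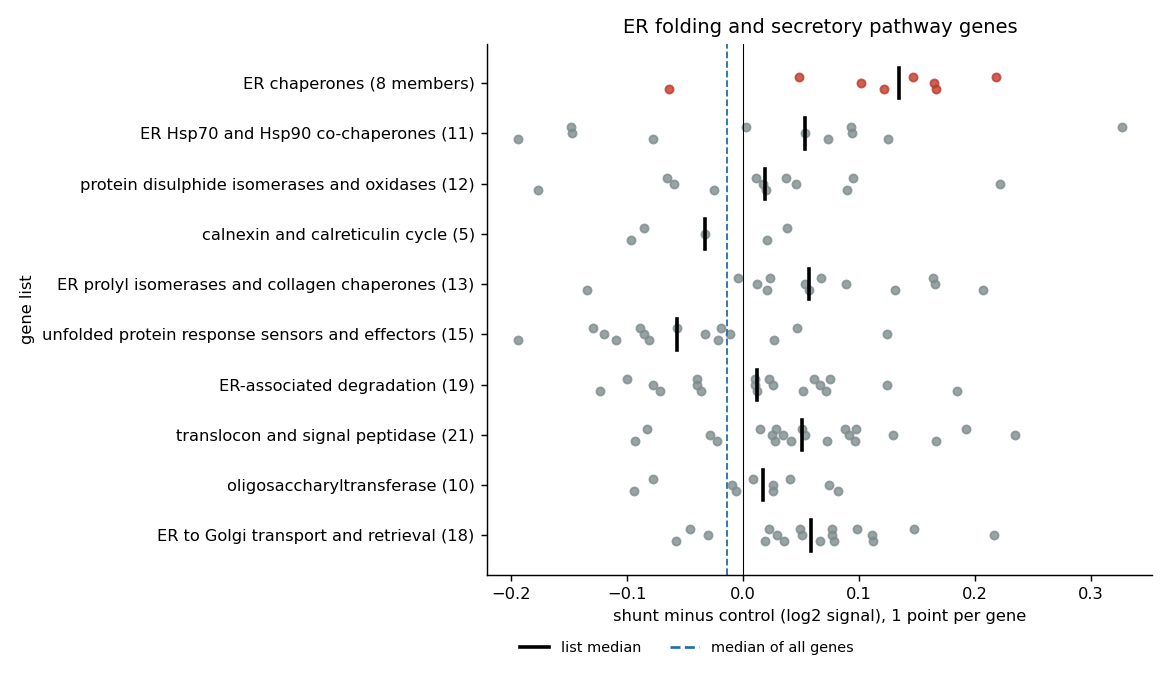
Shunt minus control difference in log2 signal (x axis) of the 8 chaperone genes and of the genes in 9 lists of folding and secretion (rows, with the number of genes), 1 point per gene, with each list's median (black bar) and the median of all genes (dashed line). The chaperone median of 0.13 lies to the right of every list median, which run from -0.06 to 0.06.

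In likeness to HSPA5 over the lambs the lists varied. Of the 124 genes, 37 (29.8%) were among the 10% of genes with the highest r with HSPA5, and 9 were among the highest 1%. These 9, named after their values were seen, were MANF, CRELD2 and DNAJC3 of the co-chaperones, DAD1 and OSTC of the oligosaccharyltransferase, the retrieval receptor KDELR2, SEC31A, the signal peptidase subunit SPCS2 and the translocon protein TRAM1. The translocon list had 12 of 21 in the highest 10% and a median r of 0.48. HSPA5 and many genes of these lists are bright, and the part of brightness in this likeness was not tested.

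Several lists of markers of lung cell types lay to one side of 0 as well, though no marker gene passed (limma, adjusted p). Markers of type 2 cells, which are rich in endoplasmic reticulum, had 0 of 8 higher and a median of -0.17, with a mean log2 level per lamb of 10.30 to 10.62 in control and 10.10 to 10.55 in shunt. Of 9 airway secretory markers listed, 3 were measured (TFF3, BPIFA1 and BPIFB1), and SCGB1A1, MUC5B and MUC5AC were not among them. Those measured had 0 of 3 higher and a median of -0.51 (8.51 to 9.41 and 7.96 to 9.20). Plasma and B cell markers had 4 of 6 higher and a median of 0.03 (6.85 to 7.04 and 6.84 to 7.11). Fibroblast markers had 5 of 9 higher and a median of 0.00 (10.32 to 11.43 and 10.52 to 11.35), endothelial markers 8 of 10 and 0.13 (9.29 to 9.52 and 9.42 to 9.66), and smooth muscle markers 6 of 8 and 0.17 (10.17 to 10.63 and 10.36 to 10.64). Of the remaining lists, medians were -0.17 for type 1 cells (1 of 6 higher), -0.04 for macrophages (2 of 6) and -0.17 for neutrophils (0 of 7). T cells were at -0.06 (3 of 7) and erythroid cells at 0.00 (2 of 4). Ciliated cells, with 3 of 6 listed markers measured, were at -0.31 (1 of 3 higher). The medians without control replicate 2 were -0.12 for macrophages (1 of 6 higher), 0.08 for fibroblasts (6 of 9) and 0.08 for erythroid cells (2 of 4). They were -0.18 for type 2 cells, -0.59 for airway secretory cells, 0.02 for plasma and B cells, 0.11 for endothelium and 0.16 for smooth muscle. The part of these markers in the chaperones' difference between the groups was not tested. Over the lambs with group means removed, HSPA5 was compared with 12 marker lists and 4 array measures, and 0 of the 16 relations passed after adjustment. The highest r was with plasma and B cell markers (r = 0.54, permutation p = 0.0411, adjusted p = 0.514, rho = 0.60, permutation p = 0.0203), which was 0.41 without the 2 lambs farthest from the HSPA5 median, and the lowest was with type 1 cell markers (r = -0.48, permutation p = 0.0642, adjusted p = 0.514, rho = -0.46, permutation p = 0.0857). With the 3′ minus 5′ difference r was 0.25 (permutation p = 0.366, rho = 0.28, permutation p = 0.305).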

How the data were processed

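RNA of 16 lamb lungs was measured on 16 arrays. The values the authors deposited are log2 signals. Per the submitters' processing notes they come from RMA, of unstated version, which as usually run corrects background, equalizes arrays by quantiles and summarizes probes. Sheep RNA on bovine probes can read low where sequences differ. No level over background and no scan date was known, so batches were not tested. The platform's probe-to-gene table gave 1 symbol for 13292 of 24016 probe sets, several for 86 and none for 10638; 112 manufacturer controls were left out. Genome positions and sequences were not used here.

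The test of shunt against control used limma 3.58.1 (R 4.3.3, lmFit, eBayes, no covariate, two-sided, Benjamini-Hochberg over 24016 probe sets, threshold 0.05), which was tested on simulated data, as were the correlations. A gene was represented by its probe set of highest mean. Correlations used 100000 permutations within groups, or all permutations within a group of 8 (exact). Members and lists were chosen with earlier results of these data known. Every member was named, up to 3 genes of smallest p per pathway list, and the 5 genes most like HSPA5. Alternatives were each array left out, a replicate block, a filter on the dimmest 25% of probe sets, 3 scalings, array weights, a trended and robust prior, other choices of probe set and a threshold of 0.10. Alternatives for single correlations with HSPA5 were added after seeing the data. Plots used matplotlib 3.10.9 in Python 3.11.15.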

Additional observations from a re-analysis of the deposited data

Results flagged for a closer look

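A single lamb lay far from the rest of its group of 8, by its gap to the nearest lamb over the range of the group, in 6 of 130 sets of values (the 18 member probe sets, other named genes, 12 marker lists and 4 array measures, each in both groups). Chance gives about 1 in 20, or 6.5. Of the 6, 4 were control replicate 2. Its CANX signal was 11.15, the lowest of the control lambs, which otherwise read 11.44 to 11.67 (gap over range 0.546). Its mean correlation with the other arrays was 0.983 against 0.990 to 0.993 (0.774). Its poly-A control level was 4.47 against 4.25 to 4.35 (0.564), all near the bottom of the signal range. Its mean of macrophage markers, relative to each gene's mean, was -0.55 against -0.05 to 0.27 (0.608). The other 2 were shunt replicate 7, whose brightest PDIA4 probe set read 7.53 against 7.70 to 7.84 in the other shunt lambs (0.538) and whose FKBP9 read 7.72 against 8.09 to 8.36 (0.575).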

How the results depend on the processing

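The count of chaperone probe sets past the threshold was 0 in all 26 alternatives run (limma), as was that of the 168 pathway probe sets. The 8 member differences kept their sign in 128 of 128 refits with 1 array left out and 80 of 80 others, and passed in 0. The count of member genes at an unadjusted p under 0.05, 2 with all arrays, was 1 after quantile normalization again and 4 with arrays centred on their medians, where the median of all genes moved from -0.01 to 0.01. With 1 array left out it ran from 2 to 4, and the 4 came without shunt replicate 1. Their median difference ran from 0.09 to 0.16 with 1 array left out and from 0.10 to 0.16 otherwise. The HYOU1 difference was 0.03 with the mean of its probe sets in place of the brightest. Of 27 named pathway genes, GANAB alone changed sign, from 0.04 to -0.0082 without control replicate 1 (up to 0.0641 with another array left out). The median r of member pairs ran from 0.38 to 0.48 with 1 array left out, and was 0.35 after cyclic loess and 0.51 as Spearman's rho. With the replicate number as a block, 2 member genes were at an unadjusted p under 0.05 and 0 of 24016 probe sets passed, against 17 without it. Same-numbered lambs deviated together in 2 of 8 pairs (r over 0.1), and 0 of 16 lambs were closest to their own number. The number of arrays limits what can be called, and the dimmest probe sets have unknown signal over background.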
